A study of Mus musculus with 17 samples.

Results

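The genes Sst, Npy, Pvalb, Vip, Cck, Chat, Nos1, Lhx6 and Calb2 mark the interneurons of the striatum, and open chromatin at these 9 genes was examined in ATAC-seq peaks of the mouse nucleus accumbens. ATAC-seq inserts sequencing adapters into DNA that is not covered by nucleosomes, so a peak marks a stretch that was open in at least part of the nuclei. The members are the peaks of all 17 libraries that overlapped the body of 1 of the 9 genes (GENCODE vM21, mm10) or the 10 kb on either side of it. Overlapping peaks were merged into regions, which gave 70 regions at the 9 genes out of 281189 genome-wide. Of these, 41 were called in at least 2 libraries of 1 group, as were 147420 genome-wide, and 10 were called in all 17 libraries, against 36847. The filter lets a region in through the group in which it is called most, so the 41 regions are not a neutral sample of calls between groups.

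The nuclei were NeuN+, that is, sorted by a protein of neuronal nuclei, and came from C57BL/6 mice (C57BL/6J in the study's methods) aged 52 to 54 days, with 3 animals pooled in each library. The 6 groups were diestrus females, proestrus females and males, each either with no cocaine or 1 h after an injection of 10 mg/kg cocaine. Every group held 3 libraries except males given cocaine, which held 2. The controls received no cocaine and, in the study's methods, served as the starting time point. Whether they were injected with vehicle is not given in the sources used here. Effects of the drug, of the injection and of the 1 h after it therefore cannot be told apart. Nothing in the labels says whether the libraries of a group came from separate sorts, so the p-values measure the spread between these libraries.

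Most neurons of the nucleus accumbens are medium spiny projection neurons, and interneurons are a small minority. The interneurons fall into cells that release acetylcholine (Chat), fast-spiking cells with parvalbumin (Pvalb), cells that co-express somatostatin, neuropeptide Y and nitric oxide synthase (Sst, Npy, Nos1), and smaller groups with calretinin (Calb2), cholecystokinin (Cck) or vasoactive intestinal peptide (Vip). Lhx6 is a homeobox factor of the cells that migrate from the medial ganglionic eminence. In such pooled nuclei, fewer cells of a type and less open DNA per cell cannot be told apart.

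The libraries held 75458 to 157005 peaks. The study reports read numbers for its ATAC-seq libraries, but they were not used here. The mean background pileup back-calculated from the peak values was 6.26 to 9.55 reads, and the weakest called summits held 15 to 20 reads. Both libraries of males given cocaine had the fewest peaks (75458 and 87707), and in males 16.8% of all 147420 regions were called in every control and in no cocaine library. The promoters of 4 of 4 pan-neuronal genes and of 6 of 6 genes of medium spiny neurons were called in all 17 libraries. Of 11 genes of glia and endothelium, 1 promoter (Mbp, of oligodendrocytes) was called in all 17 libraries, 4 in some and 6 in none, and the part these cells have in the results was not tested.

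Of the 9 interneuron genes, 1 had a promoter peak in every library, 4 had one in some and 4 in none. A promoter was taken as the 1 kb on either side of the gene's annotated 5′ end. Only Calb2 had a peak there in 17 of 17 libraries, and Cck had one in 11, Sst and Npy in 2 each and Lhx6 in 1. Pvalb, Vip, Chat and Nos1 had none in any library. Among all 21755 protein-coding genes, 51.9% had a promoter peak in all 17 libraries, 12.5% in some and 35.6% in none, against 11.1%, 44.4% and 44.4% of the 9 interneuron genes. A wider list of 33 genes holds cholinergic, fast-spiking, eminence-derived and other interneuron markers. It also holds the GABA genes Gad1, Gad2 and Slc32a1, which are not particular to interneurons. In this list, 9 promoters were called in all libraries, 13 in some and 11 in none.

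The choice of start site mattered for the promoter calls of Nos1 and Pvalb. Nos1, the neuronal nitric oxide synthase, has 7 annotated starts. None of the libraries had a peak at its outermost start, but all 17 had one within 1 kb of the internal starts at chr5:117841850 and chr5:117842186. Pvalb, a calcium-binding protein, had a peak at its internal start at chr15:78204237 in 7 libraries: 2 of 3 diestrus controls, 1 of 3 diestrus cocaine, 2 of 3 proestrus controls, 2 of 3 male controls and no other library. With any annotated start counted, an alternative chosen after seeing the data, 2 of the 9 genes had a peak in every library. Limited to peaks whose −log10 q reached 5, none of the 9 had a promoter peak in every library. The shares of all protein-coding genes under these 2 settings are not given here. Neither count can therefore be set against the genome-wide share above. The Calb2 promoter peak was weak, at the 10.4th percentile of mean fold enrichment among the regions called in all libraries.

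The sequences of 2 promoters are shown because Sst carries the full cAMP response element, the site at which the activity-regulated factor CREB binds, and because the Cck promoter was the one whose calls differed most between groups. Both are RefSeq sequences of GRCm38.p6 on the minus strand, written 5′ to 3′ with the element in capitals. The Sst stretch lies at chr16:23890874-23890903 and holds the element at bases -48 to -41 from the RefSeq start. The Cck stretch lies at chr9:121495695-121495944, ends at the base before the start, and holds the short form of the element, CGTCA, at -47 to -43.
Sst: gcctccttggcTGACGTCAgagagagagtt
Cck: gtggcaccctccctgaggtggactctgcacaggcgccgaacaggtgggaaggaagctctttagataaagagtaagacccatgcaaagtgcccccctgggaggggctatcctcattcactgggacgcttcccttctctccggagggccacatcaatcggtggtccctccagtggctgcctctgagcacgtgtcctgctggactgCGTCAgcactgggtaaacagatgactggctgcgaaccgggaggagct

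The full element TGACGTCA, which reads the same on both strands, was in 1.79% of the 32851 RefSeq promoters, counted from 250 bases before to 50 bases after the start. Among the 11 promoters of 8 interneuron genes in the table, only that of Sst held it. The short element, TGACG or CGTCA, which is part of the full one, was in 20.8% of all promoters and in those of Cck, Chat, Nos1, Sst and Vip. The Nos1 promoter that holds it lies at chr5:117866589-117866888, inside the gene, and not at the outermost start used for the promoter calls. The AP-1 site, TGACTCA or TGAGTCA on either strand, was in 5.20% of promoters and in that of Lhx6. The element in Sst lay where 2 of 17 libraries had a peak within 1 kb of the 5′ end, 1 proestrus control and 1 proestrus cocaine library.

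The Cck promoter was called more often after cocaine in proestrus, and less often in diestrus and males. Its region, chr9:121495125-121496524, overlaps the first exon and has its summit inside the stretch printed above. It was called in 3 of 3 diestrus controls, with fold enrichments over background of 2.71, 2.79 and 3.11, and after cocaine in 1 of 3, at 4.15. In proestrus it was called in none of the 3 controls and in all 3 cocaine libraries, at 2.50, 2.46 and 2.30. In males it was called in 3 of 3 controls, at 3.95, 3.17 and 4.61, and in 1 of 2 cocaine libraries, at 2.84. The proestrus cocaine values are among the weakest of the called ones, so the promoter lay close to the calling limit in proestrus. The neighbouring region chr9:121493971-121494889, whose nearest edge is 0.8 kb from the Cck start, did not show this gain. It was called in 1 of 3 proestrus controls, at 3.83, and in 1 of 3 proestrus cocaine libraries, at 2.30, in 3 of 3 diestrus controls and 1 of 3 after cocaine, and in 2 of 3 male controls and 1 of 2 after cocaine. Called in every proestrus cocaine and no proestrus control library, the promoter region was the 1 region of the 41 gained in proestrus, where 2.45% of all regions were gained, and none of the 41 was lost there, against 1.64%. The gain was not seen with the peaks limited to a −log10 q of 5 or more or with equal numbers of the strongest peaks in each library, under which the count was 0. Cck is the precursor of the peptide cholecystokinin.

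**Figure D1:**
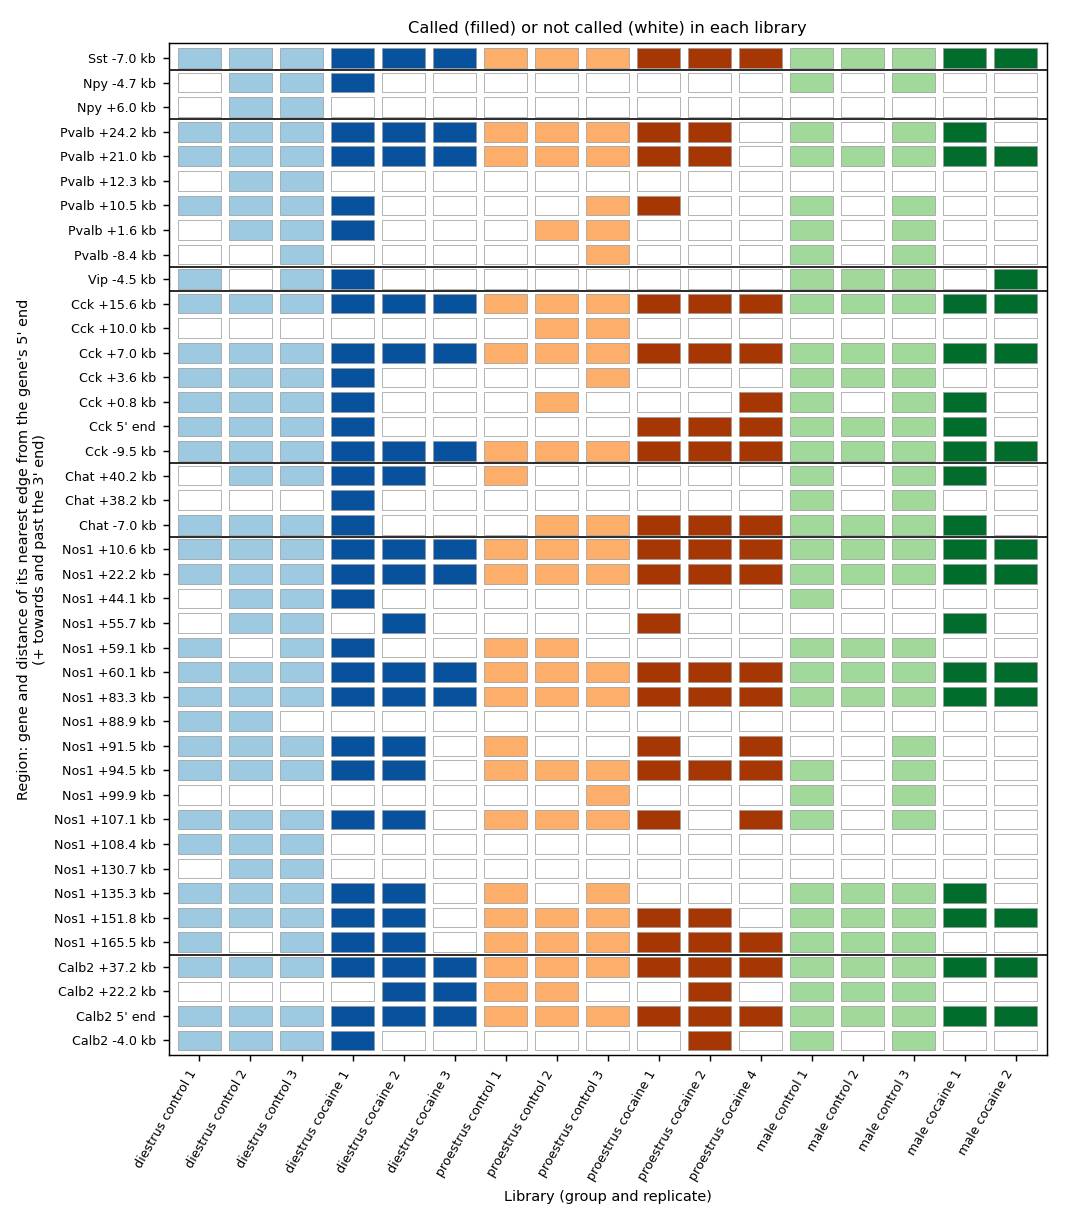
Calls of the 41 regions (rows, named by gene and by the distance of the region's nearest edge from the gene's 5′ end, with + towards and past the 3′ end) in the 17 libraries (columns); a filled box, coloured by group, is a called region and a white box is not. The 10 fully filled rows are the regions called in every library (Nos1 4, Cck 3, Calb2 2, Sst 1), and diestrus controls fill most of the rest.

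The genes differed widely in how many open regions they held. Nos1 had 17 of the 41 regions, Cck 7, Pvalb 6, Calb2 4, Chat 3, Npy 2, Sst 1 and Vip 1, and Lhx6 had none. Per 10 kb of window, Cck was the densest, at 2.71 regions, followed by Pvalb at 1.70, while the large Nos1 window of 197809 bp held 0.859. The median of the 9 genes was 0.746 and that of all protein-coding genes 0.749. The windows also hold other genes. That of Chat, the acetylcholine-synthesising enzyme, contains the nested gene of the vesicular acetylcholine transporter, Slc18a3. The region 15.6 kb past the Cck start spans 6914 bp, overlaps the gene Trak1 and reaches the Cck window with its end only. Its summit, at chr9:121477363, lies outside that window, yet it counts as 1 of the 3 Cck regions called in every library.

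The share of the 41 regions that was called varied between libraries, also within a group. Diestrus controls called 28 to 36 of the 41 regions, a mean of 78.9%, against 60.5% of all regions. Diestrus libraries after cocaine called 13 to 31 (52.8%, against 54.9%), and replicate 1 with 31 stood inside the range of the controls. Proestrus controls called 21 to 24 (54.5%, against 53.2%) and proestrus cocaine libraries 17 to 21 (46.3%, against 56.9%), and the 2 ranges met at 21. Male controls called 20 to 33 (69.9%, against 68.3%) and male cocaine libraries 13 to 19 (39.0%, against 39.3%), so the groups did not overlap in males, where the genome as a whole shifted by as much. In diestrus controls the excess over the genome was in all 3 libraries, and in proestrus after cocaine the deficit was in all 3. Because the regions were filtered on these same calls, no test of these shares was made.

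**Figure D2:**
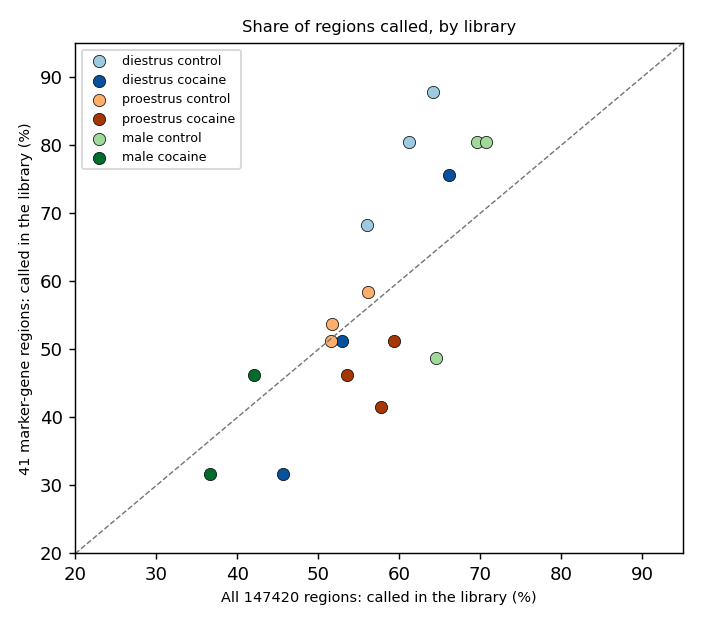
Percentage of the 41 interneuron-gene regions called in each library (vertical axis) against the percentage of all 147420 regions called in it (horizontal axis), with colours for the 6 groups and a dashed line of equality. All 3 diestrus controls (68.3% to 87.8%) lie above the line, and all 3 proestrus cocaine libraries (41.5% to 51.2%) lie below it.

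No interneuron gene passed the test of whether its window held fewer or more called regions after cocaine. Counts were expressed per 100000 called regions of the library, and treatment was permuted within diestrus, proestrus and males in an exact two-sided permutation test with 4000 assignments, whose smallest possible p is 0.00025, adjusted over 17456 genes, of which 361 (2.07%) passed. For Nos1, diestrus controls held 13, 14 and 15 called regions and diestrus cocaine libraries 12, 11 and 4. Proestrus controls held 11, 9 and 10 at Nos1 and proestrus cocaine libraries 10, 7 and 8. Male controls held 12, 8 and 12 and male cocaine libraries 7 and 5. The Nos1 difference was -2.69 per 100000 (exact permutation p = 0.0158, adjusted p = 0.137). For Pvalb, diestrus controls held 3, 5 and 6 called regions and the cocaine libraries 4, 2 and 2, and the difference over all 3 kinds of animal was -1.73 (exact permutation p = 0.0387, adjusted p = 0.143). Sst held its 1 region in every library, so its value of 0.265 (exact permutation p = 0.0430, adjusted p = 0.143) only follows the library totals. The other 5 genes tested, Npy, Cck, Chat, Vip and Calb2, gave differences of -0.582 to 0.0202 with unadjusted exact permutation p from 0.110 to 0.963, and Lhx6 had no region to test. Without male control replicate 2, Nos1 passed as lower.

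Region by region, calls were also compared across all cocaine and all control libraries. Of the 41 regions, 20 were called in 4 to 13 libraries and were tested by Fisher's exact test. None passed after adjustment, nor did any of the 64304 regions tested genome-wide (0%). At an unadjusted p under 0.05, 4 of the 20 were called less often and none more often after cocaine, where 9.23% of all tested regions were called less often. These 4 were the intronic region 3.6 kb into Cck (1 of 8 cocaine and 7 of 9 control libraries, exact p = 0.0152), the one 59.1 kb into Nos1 (also 1 of 8 and 7 of 9, exact p = 0.0152), the region at the internal Pvalb start (1 of 8 and 6 of 9, exact p = 0.0498) and the one 135.3 kb into Nos1 (3 of 8 and 8 of 9, exact p = 0.0498).

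Regions called in every control and in no cocaine library of 1 kind of animal, or the converse, are given as a description. In diestrus 1 of the 41 was lost, where 1.26% of all regions were, and none was gained, against 1.16%. The lost region lies in an intron of Nos1 at chr5:117889443-117889956, 108.4 kb from the 5′ end, and had fold enrichments of 4.0, 2.68 and 3.32 in the 3 diestrus controls and no call in the other 14 libraries. In males 4 (9.76%) were lost, against 16.8% of all regions, and none was gained, against 1.66%. The 4 lost in males were the Cck region 3.6 kb from the start, the Nos1 regions at 59.1 and 165.5 kb, and a Calb2 region at 22.2 kb that overlaps an exon. With the peaks limited to a −log10 q of 5 or more, none was lost in diestrus and 2 were in males, and with equal numbers of the strongest peaks in each library none was lost in either.

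A few summit windows carry the results that follow: the strongest region at any of the 9 genes, the Nos1 region lost in diestrus, and the Cck region with the largest change in diestrus. Each is the summit base with 100 bases on either side, on the plus strand of GRCm38.p6, with an AP-1 site or short element in capitals where there is one. The windows are chr5:117865091-117865291 in an intron of Nos1, chr5:117889702-117889902 in an intron of Nos1, and chr9:121487242-121487442 outside Cck, past its 3′ end.
Nos1 +83.3 kb: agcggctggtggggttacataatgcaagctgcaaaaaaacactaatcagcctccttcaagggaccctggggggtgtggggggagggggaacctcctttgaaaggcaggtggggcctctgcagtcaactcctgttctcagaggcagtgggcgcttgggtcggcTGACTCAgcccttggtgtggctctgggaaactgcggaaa
Nos1 +108.4 kb: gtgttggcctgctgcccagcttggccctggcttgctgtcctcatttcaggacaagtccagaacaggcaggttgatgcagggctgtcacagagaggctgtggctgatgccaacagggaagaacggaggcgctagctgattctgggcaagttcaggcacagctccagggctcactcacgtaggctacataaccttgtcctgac
Cck +7.0 kb: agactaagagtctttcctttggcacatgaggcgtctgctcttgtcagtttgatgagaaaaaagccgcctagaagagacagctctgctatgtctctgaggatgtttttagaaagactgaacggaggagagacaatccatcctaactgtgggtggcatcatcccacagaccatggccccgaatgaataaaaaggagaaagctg

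An AP-1 site, the element bound by Fos and Jun proteins, lay within 100 bases of the summit in 5 of the 41 regions (12.2%), against 10.1% of all 147420 regions. All 5 were in Nos1, at 83.3, 91.5, 99.9, 107.1 and 135.3 kb from its 5′ end. The short element was in 6 of the 41 (14.6%, against 9.59%), which were 3 in Nos1, 2 in Cck and 1 in Pvalb, and the full element was in none (against 0.498%).

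The height of the peaks was compared in the 10 regions called in all 17 libraries. The measure was the log2 of the highest fold enrichment in the region, quantile normalized between libraries, and limma was fitted to all 36847 such regions with p-values adjusted over all of them. The strongest was the Nos1 intronic region chr5:117864376-117866114, 83.3 kb from the 5′ end and upstream of the internal starts at chr5:117867114 and chr5:117867119. Its mean fold enrichment was at the 86.0th percentile of all such regions. The Cck region chr9:121486292-121488644 was at the 75.5th percentile and the Sst region chr16:23897968-23899297, 7.0 kb upstream of the gene of the peptide somatostatin, at the 41.0th.

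In diestrus, 4 of the 10 regions fell after cocaine and none rose, where 13% of all regions passed the test (2449 higher and 2343 lower). The median log2 difference was -0.39 over the 10 regions and 0.00 over all. At the strongest Nos1 region, the deposited fold enrichments were 13.7, 25.7 and 24.8 in diestrus controls and 21.6, 16.5 and 9.99 after cocaine. The groups overlapped there, since control replicate 1 was lower than 2 of the 3 cocaine libraries. Normalized, the region had geometric means of 20.1 in controls and 14.4 after cocaine, a log2 difference of -0.48 (SE 0.15, limma adjusted p = 0.0362). The Nos1 region chr5:117803221-117804196 had normalized values of 6.90 to 7.90 in diestrus controls and 4.08 to 6.22 after cocaine, and fell by 0.63 (SE 0.17, limma adjusted p = 0.0165). The Nos1 region chr5:117791608-117792427 had 6.34 to 7.86 in diestrus controls and 4.60 to 5.97 after cocaine, and fell by 0.53 (SE 0.17, limma adjusted p = 0.0416). The Cck region chr9:121486292-121488644 had deposited fold enrichments of 12.7, 14.4 and 17.3 in diestrus controls and 17.5, 9.18 and 5.51 after cocaine, so that cocaine replicate 1 was the highest of all 6. Its normalized log2 difference was -0.67 (SE 0.18, limma adjusted p = 0.0174).

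These diestrus calls rested on the spread pooled over all groups and on single libraries. Fitted on the 6 diestrus libraries alone, none of the 10 regions passed (the same 4 differences were -0.48 to -0.67, with limma adjusted p from 0.0600 to 0.105), and none passed without control replicate 3, cocaine replicate 2 or cocaine replicate 3, while 2 passed without control replicate 2 or with each library corrected for the GC content of the regions.

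In proestrus, none of the 10 regions passed the test by limma, where 5.01% of all regions did and the median difference of the 10 was -0.30, and 3 of the 10 had an unadjusted limma p under 0.05, as did 24.1% of all regions. These 3 had differences of -0.36 and -0.45 at Nos1 (10.6 and 60.1 kb from the 5′ end) and -0.36 at the Calb2 region 37.2 kb from its start, all lower after cocaine, with limma adjusted p from 0.175 to 0.205. The strongest Nos1 region had deposited values of 14.1, 14.2 and 16 in proestrus controls and 14.8, 12 and 12.6 after cocaine, and its normalized difference of -0.23 (SE 0.15) had a limma adjusted p of 0.367. The peaks of the proestrus cocaine libraries had a lower median GC content (44.0% to 45.1%) than those of the proestrus controls (45.6% to 46%), and with the GC correction none of the 10 regions passed either. The test of the difference between the diestrus and proestrus effects called none of the 10 regions and 2 of 36847 in all (0.00543%), so a drop in diestrus and not in proestrus was not shown. The largest such difference among the 10 was that of the Calb2 region chr8:110130450-110131047, which had a normalized difference of 0.39 in diestrus and -0.36 in proestrus (limma adjusted p of the contrast 0.552; it was the 1 region of the 10 with an unadjusted p under 0.05, which 7.03% of all regions had).

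**Figure D3:**
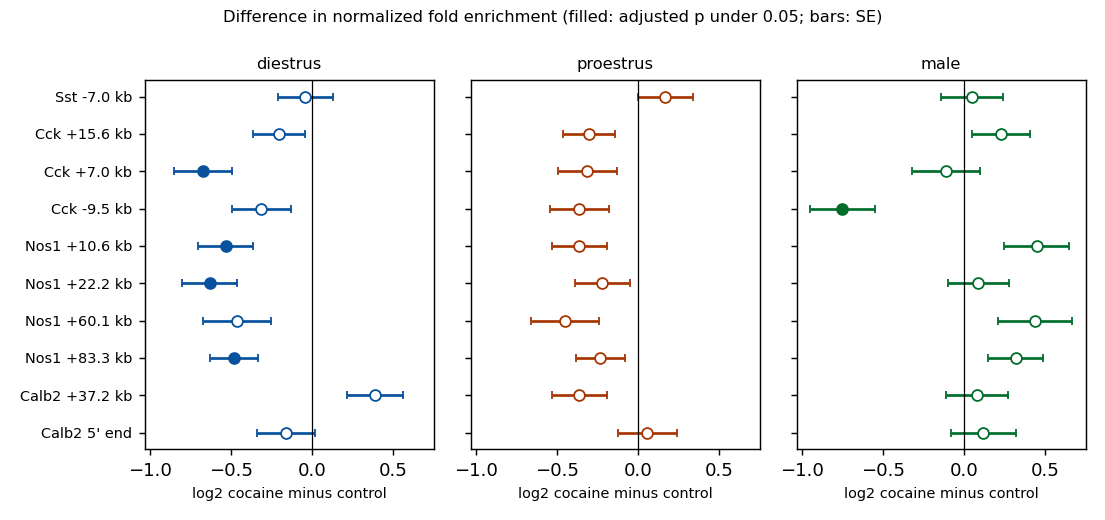
Log2 difference in normalized fold enrichment between cocaine and control libraries (points, with SE bars) at the 10 regions called in all 17 libraries, in diestrus, proestrus and males; filled points passed the limma test. In diestrus 4 points are filled, all below 0, in proestrus none, and in males 1 (Cck -9.5 kb, at -0.75).

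In males no Nos1 region passed the test. After cocaine, 1 of the 10 regions fell and none rose, where 8.6% of all regions passed, and the median difference was 0.10 over the 10 regions and 0.01 over all. At the 4 Nos1 regions the differences were 0.45, 0.09, 0.44 and 0.32 in order along the gene, none past the threshold (limma adjusted p from 0.143 to 0.813). The strongest Nos1 region had deposited values of 14.9, 11.4 and 13.9 in male controls and 12.8 and 13.3 after cocaine, which overlap, and normalized geometric means of 11.6 and 14.4. At the other Nos1 regions the deposited values were also not higher after cocaine than the range of the controls, except 1 library at 10.6 kb, and at 22.2 kb they were lower (4.15 and 3.95, against 5.86, 4.82 and 5.05). The positive differences in males are those of the quantile normalized values. The test of the male effect against the mean of the 2 female effects called 3 of the 10 regions higher and none lower, where 19.7% of all regions passed. All 3 were in Nos1: the difference between effects was 0.89 at the region 10.6 kb from the 5′ end (SE 0.23, limma adjusted p = 0.00843), 0.90 at the internal starts (SE 0.27, limma adjusted p = 0.0208) and 0.68 at the strongest region (SE 0.20, limma adjusted p = 0.0204). Without male control replicate 2, or without either male cocaine library, 1 of the 10 regions passed this test, and the region at the internal starts was at 0.56 (limma adjusted p = 0.113) with the GC correction.

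**Figure D4:**
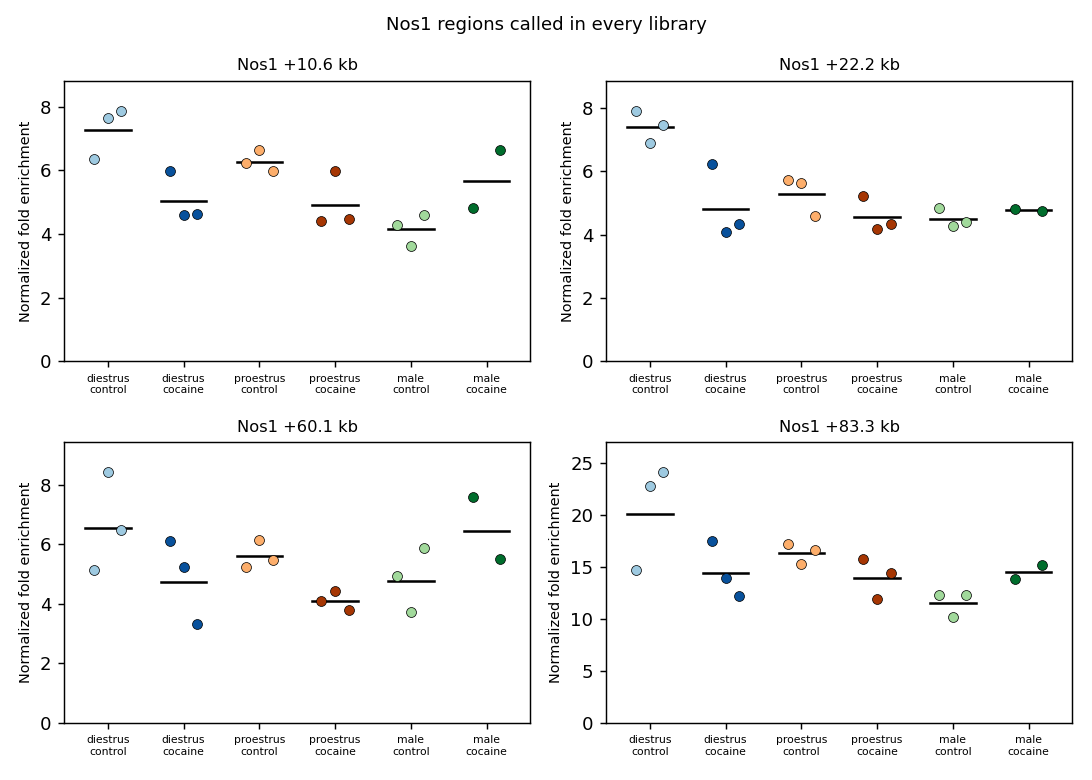
Normalized fold enrichment (vertical axis, from 0) at the 4 Nos1 regions called in every library, named by distance from the 5′ end; points are libraries by group and lines are geometric means. Diestrus controls are the highest group by mean in all 4 panels, and in males the cocaine libraries have higher means than the controls.

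The controls themselves differed between males and females at Nos1. Compared with diestrus controls, male controls were lower at 3 of the 10 regions and higher at 1, where 25% of all autosomal regions passed. The 3 lower ones were in Nos1, with log2 differences of -0.81, -0.72 and -0.79 at 10.6, 22.2 and 83.3 kb from its 5′ end. Compared with proestrus controls, male controls were lower at 2 Nos1 regions (-0.60 and -0.50, at 10.6 and 83.3 kb) and higher at 1, where 15.1% of all regions passed. Between diestrus and proestrus controls none of the 10 passed by limma, where 0.692% of all regions did, and 2 of the 10 had an unadjusted p under 0.05, as did 15.4% of all regions (Nos1 22.2 kb from its 5′ end, with a log2 difference of 0.48, and Cck 7.0 kb from its start, with 0.41, both higher in diestrus). The same control libraries enter these comparisons and the cocaine comparisons, so a high or low control group moves both.

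The region higher in male controls was the Cck region chr9:121505168-121507315, upstream of the gene, and it was also the 1 that fell after cocaine in males. Its deposited fold enrichments were 9.56, 7.02 and 9.22 in male controls and 3.72 and 3.60 after cocaine, and 2.89 to 5.82 in the 12 female libraries, so male controls stood above every other library. The cocaine difference in males was -0.75 (SE 0.20, limma adjusted p = 0.0172), and male controls exceeded diestrus controls by 0.67 and proestrus controls by 0.66. Its peaks, looked at after these values were seen, form 2 stretches that only diestrus control replicate 3 joined with a single peak. At the nearer stretch, from 9.5 kb upstream, male controls had 6.25, 4.13 and 4.50, male cocaine libraries 3.72 and 3.60, and female libraries 2.89 to 5.82. At the farther stretch, chr9:121506266-121507315, all 3 male controls had a peak, at 9.56, 7.02 and 9.22, while 1 of 2 male cocaine libraries had one, at 2.73, and 9 of the 11 separable female libraries had one, at 2.89 to 3.56. The farther stretch is therefore where the male controls stand apart, and it begins outside the 10 kb margin of Cck. Without diestrus control replicate 3 the stretches separate, and the nearer one had a male cocaine difference of 0.02. The call was also lost without male control replicate 1 or 3 or without either male cocaine library.

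**Figure D5:**
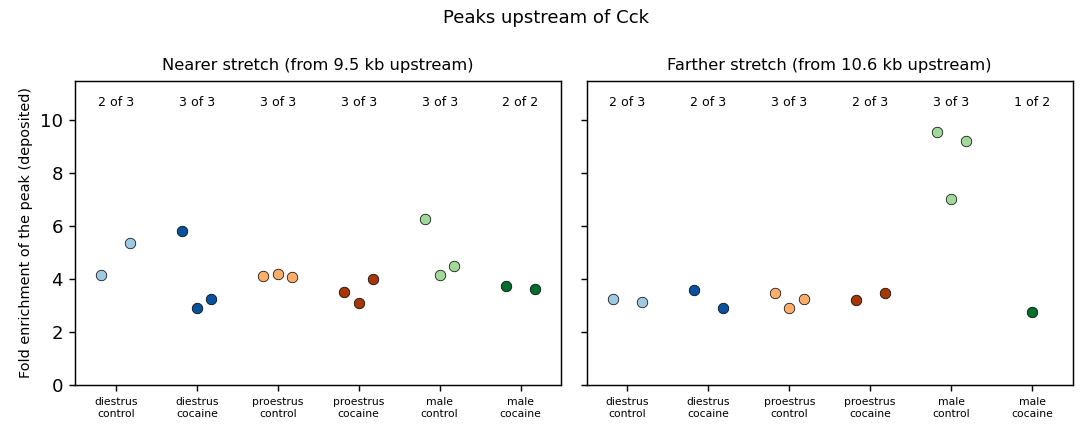
Deposited fold enrichment of each library's peak (vertical axis, from 0) at the nearer and the farther stretch upstream of Cck, by group, with the number of libraries that have a separate peak over each group. At the farther stretch the 3 male controls (7.02 to 9.56) lie above all other peaks (2.73 to 3.56).

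The Sst region and the Calb2 promoter gave no call in any of the cocaine comparisons. At Sst the deposited fold enrichments were 5.55, 6.81 and 5.08 in diestrus controls and 6.41, 6.79 and 4.25 after cocaine, and 3.80, 5.11 and 4.55 in proestrus controls and 5.11, 6.31 and 4.92 after cocaine. Male controls had 8.29, 5.78 and 7.13 at Sst and male cocaine libraries 4.92 and 5.35. The deposited values do not overlap in males, but with the libraries normalized the log2 differences were -0.04 in diestrus, 0.17 in proestrus and 0.05 in males (SE 0.17 to 0.19, limma adjusted p from 0.562 to 0.903). The Calb2 promoter region, chr8:110167997-110168564, had 2.64 to 5.22 in females and 4.04 to 5.60 in males. Its log2 differences were -0.16, 0.06 and 0.12 in the same order (SE 0.18 to 0.20, limma adjusted p from 0.578 to 0.867). Calb2 encodes the calcium-binding protein calretinin.

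The wider list of 33 genes is not limited to interneurons. Its GABA genes Gad1, Gad2 and Slc32a1 held 2, 4 and 2 of the regions called in all libraries. The whole list held 44 such regions. After cocaine, 2 rose and 4 fell in diestrus animals, 2 rose and 2 fell in proestrus animals, and 6 rose and 1 fell in males (limma). Of all 36847 regions, 2449 rose and 2343 fell in diestrus, 948 rose and 899 fell in proestrus, and 1304 rose and 1864 fell in males. The male effect exceeded the mean female effect at 10 of the 44 regions and fell short of it at none, as compared with 3614 higher and 3647 lower of all 36847, while the median difference of the 44 was 0.06. Male controls were lower than diestrus controls at 9 of the 44 and higher at 1, as compared with 4477 lower and 4581 higher of 36170 autosomal regions. Of the 257 regions of this list called in at least 2 libraries of 1 group, diestrus libraries gained 14 (5.45%, against 1.16% of all regions) and lost 4 (1.56%, against 1.26%). Proestrus libraries gained 15 (5.84%, against 2.45%) and lost 6 (2.33%, against 1.64%), and male libraries gained 17 (6.61%, against 1.66%) and lost 30 (11.7%, against 16.8%). Of the 257 regions, Reln held 38, Erbb4 37 and Gad2 33. These gains and losses are not given by gene or under other settings here, so they do not describe interneuron genes in general.

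The remaining genes gave few or weak calls. Npy, the gene of neuropeptide Y, had a region 4.7 kb upstream, called in 5 libraries (2 diestrus controls, 1 diestrus cocaine and 2 male controls) at fold enrichments of 2.26 to 3.19, and a second near its 3′ end in 2 diestrus controls. Vip had 1 region, 4.5 kb upstream, in 7 libraries: 2 diestrus controls, 1 diestrus cocaine, all 3 male controls and 1 male cocaine, and no proestrus library, at 2.84 to 5.37. Pvalb had 2 regions past its 3′ end that were called in 14 and 16 libraries, which is more than at its starts, and the second of these, 21.0 kb from the 5′ end, had 2.77 to 6.23. Chat had a region 7.0 kb upstream in 13 libraries, at 2.67 to 4.84, and 2 intronic ones in 8 and 3. Lhx6 had 2 regions, neither of which was called in 2 libraries of a group.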

How the data were processed

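Each library's deposited peak file was made by the authors, who aligned 100 bp paired-end reads to mm10 with BWA and called peaks per library with MACS2; versions and options are not given in the sources used here. The deposited files give each peak's fold enrichment (a ratio over background), its −log10 p-value and −log10 q-value, a score and the summit position; no replicate was pooled further. Read counts were not used here, so the count test of the study was not run. The stage of diestrus cocaine replicate 2 was taken from its title.

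Here, overlapping peaks of the 17 libraries were merged (1 bp), and a region was kept if called in at least 2 libraries of 1 group. Gene windows came from GENCODE vM21. Tests were limma 3.58.1 (trend, R 4.3.3), Fisher's exact test and exact permutation tests (Python 3.11.15, scipy 1.17.1), with Benjamini-Hochberg adjustment at 0.05, checked on simulated data. Male and female controls were compared on autosomes. Regions were named if they passed a test, were gained or lost, or were the strongest of a gene. The genes and lists were chosen with earlier results of these data known. Alternatives were the q threshold, equal peak numbers, coverage of 50%, normalization, GC correction, promoter width and leaving out each library. Same-numbered libraries were checked for pairing and were not paired. The smallest peaks limit precision to sites with 15 or more reads. AP-1 and CRE letters were searched 100 bases around summits and in RefSeq promoters, which matched 8 of the 9 genes.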

Additional observations from a re-analysis of the deposited data

Results flagged for a closer look

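At 3 regions of Nos1, the effect of cocaine differed between males and females by the interaction test of the difference itself (limma, adjusted over all 36847 regions called in every library, of which 19.7% passed this test). The male effect minus the mean of the diestrus and proestrus effects, on the log2 scale, was 0.89 at the intronic region 10.6 kb from the 5′ end, 0.90 at the region over the internal starts 60.1 kb from it, and 0.68 at the strongest Nos1 region, 83.3 kb from it. In the quantile normalized values, the male cocaine libraries had the higher mean at all 3 regions, by 0.45, 0.44 and 0.32, and in diestrus and proestrus the lower, by 0.23 to 0.53 in size, yet none of the 3 male differences passed the test on its own, and in the deposited values the male cocaine and control libraries overlapped at all 3. Male controls had lower normalized values than diestrus controls at all 3 regions, by 0.81, 0.46 and 0.79 in size, of which the first and last passed the test, and those controls enter the contrast. Both male cocaine libraries had fewer peaks (75458 and 87707) than any other library, and the part of this in the result was not tested. Leaving out each library gave differences between effects of 0.68 to 1.13, 0.68 to 1.14 and 0.59 to 0.79 at the 3 regions. Fewer regions passed this test without male control replicate 2, and with the GC correction the region over the internal starts did not pass. In groups of 3 or 2 libraries, no search for single outlying libraries was made.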

How the results depend on the processing

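Median centring moved no count of the 10 always-called regions by over 1.5 times. With the GC correction, 2 in place of 4 regions passed in diestrus, the Sst region there was at 0.04 in place of -0.04, and the Calb2 promoter in males at -0.10 in place of 0.12. With only the compared groups in the fit, 0 passed in diestrus and 1 (higher) between diestrus and proestrus controls. With peaks of −log10 q of at least 5, 6 of the 10 regions were tested and 0 passed in males, since the Cck region was not among them; the same threshold gave 0 lost in diestrus, 0 gained in proestrus, 2 lost in males and 0 genes with a promoter peak in every library. With equal numbers of the strongest peaks, these 4 counts were all 0. When peaks had to cover 50% of a region, 0 was gained and 1 lost in proestrus. Counting any annotated start, chosen after seeing the data, gave 2 genes with a promoter peak in every library. The causes were not tested.

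Over all regions, the counts passing limma moved by more than 1.5 times in these cases: in diestrus to 518 higher and 565 lower with the compared groups alone; in proestrus (948 and 899) to 222 and 277 with the replicate block; in males (1304 and 1864) to 2712 and 3256 with the compared groups alone; between diestrus and proestrus controls (190 and 65) to 79 and 38 with median centring, 371 and 196 with the GC correction, 1091 and 751 with the compared groups alone and 101 and 35 with the q threshold; and between male and proestrus controls (2870 and 2593) to 4519 and 4328 with the compared groups alone. For the gene windows (183 higher and 178 lower), 0 genes passed unscaled, with the q threshold or with swaps within pairs.

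Libraries with the same number did not vary together (correlations of deviations from -0.228 to 0.149), so they share only a number. With the replicate block, 4 of the 10 regions passed in diestrus, 0 in proestrus and 1 in males, 3 for the male against the female effect, and 4 and 3 for male against diestrus and proestrus controls, 0 for the other comparisons, and 0 gene windows passed (128 swaps, smallest p 0.0156).

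Leaving out each library gave 0 to 6 regions passing in diestrus, 0 in proestrus, 0 to 1 in males, 0 for the diestrus against the proestrus effect, 1 to 5 for the male against the female effect, 0 between female controls, 3 to 5 for male against diestrus and 1 to 3 for male against proestrus controls. It gave 0 by Fisher's test, 0 to 1 gained and 1 to 7 lost in diestrus, 1 gained and 0 to 2 lost in proestrus, 0 to 1 gained and 4 to 13 lost in males, and 0 to 1 gene windows. Where 1 male cocaine library remained, it was assumed to vary like the other groups. Differences of the Sst region ranged from -0.14 to 0.06 in diestrus and -0.07 to 0.14 in males, those of the Calb2 promoter from -0.26 to 0.02 in diestrus and -0.09 to 0.21 in proestrus, and those of the Cck -9.5 kb region from -0.87 to 0.02 for cocaine in males, -0.11 to 0.79 for male against diestrus and -0.11 to 0.78 for male against proestrus controls. The Cck and Chat windows ranged from -0.847 to 0.150 and from -0.921 to 0.191 per 100000.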
